A study of Mus musculus with 38 samples.

Results

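The expression of 85 genes of the mitochondrial respiratory chain was followed by RNA-seq in mouse CD4+ helper T cells. They were chosen by name and level alone. An entry had to begin with Nduf, Uqcr, Cox4 to Cox8 or Atp5, or be Sdha, Sdhb, Sdhc or Sdhd, and be listed at a single locus. It also had to reach 1 FPKM (fragments per kilobase, corrected for how many reads each library had mapped) in at least 2 libraries. Of 23700 entries, 90 carried such a name and 85 passed. Sdhaf1 and Sdhaf2, whose names also begin with Sdh and a letter, were not counted as members. The 5 entries that did not pass were the tissue isoforms Ndufa4l2, Cox8c, Cox4i2, Cox7b2 and Cox8b, and the highest value of any of them in any library was 1.16 FPKM, for Cox4i2.

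The respiratory chain passes electrons from NADH through complex I, or from succinate through complex II, to complex III, and from there by cytochrome c to complex IV, which reduces oxygen. Complexes I, III and IV pump protons, and ATP synthase uses the gradient to make ATP. The genes described here are the nuclear-encoded ones; the proton-pumping core of the chain is partly encoded by mitochondrial DNA. Helper T cells raise both glycolysis and respiration when they are activated.

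The study asked how STAT4, STAT6 and the lineage factors T-bet and GATA3 shape helper T cells, and only its RNA libraries are used here. All cells came from C57BL/6J mice, whose naive CD4+ T cells were sorted out of spleens and lymph nodes and polarized in culture to Th1 or Th2. The day 7 cultures carried no vector and were restimulated for 2 h through CD3 and CD28, with IL-12 for Th1 and IL-4 for Th2. They held STAT4 KO (Stat4 tm1 allele), T-bet KO (Tbet tm1 allele) and wild-type Th1 cells, and STAT6 KO (Stat6 tm1 allele) and wild-type Th2 cells. In the vector cultures, labelled 5 days, the cells were transduced with a retrovirus that carried T-bet or GATA3 beside a truncated human NGFR tag, or with the same vector without the insert. T-bet vector and control vector were each given to STAT4 KO and wild-type Th1 cells, and GATA3 vector and control vector to STAT6 KO and wild-type Th2 cells. The Th1 vector labels give 7 days and a 2 h restimulation in another field, and the Th2 vector labels give no restimulation. Vector and no-vector cultures thus differed in time, transduction and possibly restimulation at once, which cannot be told apart. The vector drives T-bet or GATA3 above the cells' own level, and the labels leave the share of transduced cells unstated.

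Each group held 1 library, except wild-type Th1 without vector, which had 2. That second library differed from the rest in its overall profile, as did the library of T-bet KO cells, and the fits below use the remaining 12. In Th1 cells labelled STAT4 KO, Stat4 read 6.71 to 17.5 FPKM, against 37.1 to 60.8 FPKM in the matched wild-type cells. Stat6 read 36.1 and 23.3 FPKM in the control-vector and GATA3-vector cells labelled STAT6 KO, against 65.9 and 48.0 FPKM in wild-type Th2 cells. In the no-vector pair Stat6 read 34.6 FPKM in the library labelled STAT6 KO and 35.6 FPKM in WT Th2, so the transcript level did not mark this knockout, while Gata3, which lies downstream of STAT6, read 14.3 and 62.1 FPKM in the same libraries. The labels do not say which part of the gene the allele removes. The summed level of 8 T cell markers ran from 730 to 1599 FPKM. B cell, NK cell and erythroid markers each summed to at most 1.41 FPKM. The 2 CD8 T cell markers summed to 1.84 to 5.65 FPKM, and 1 of them reached 1 FPKM in at least 2 libraries. The 5 myeloid markers found summed to 0.20 to 8.63 FPKM. Read depth is unknown from these files. The deposited 95% intervals reached a median of 3.65 to 5.50% above the value for members at 10 FPKM or more, and these cover counting and assignment error in 1 library only.

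Respiratory chain transcripts were abundant in every library. The median member averaged 67.6 FPKM over the 12 libraries, against 9.53 FPKM for the 11121 tested genes, and 48 of the 85 members were in the top 10% of tested genes. At least 100 FPKM was the average of 29 members, 45 lay between 10 and 100 FPKM, and 11 were below 10 FPKM. All but 5 members (80) reached 1 FPKM in all 12 libraries. The highest library exceeded the lowest by a median ratio of 2.22.

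ATP synthase supplied 4 of the 5 highest members, and complex IV 5 of the 10 highest. Atp5b, the catalytic beta subunit of its F1 head, had the highest mean, with a lowest, median and highest value of 259.9, 523 and 604 FPKM. Atp5k, which encodes subunit e of the membrane part, gave 267, 429.6 and 605 FPKM. Atp5e, the epsilon subunit of the stalk, gave 286, 383 and 482 FPKM, and Atp5g3, a source of the proton-carrying c ring, gave 219.7, 334 and 391 FPKM. These ranges overlap, so the order among the leading members is not fixed by the data. Cox4i1, the main form of a complex IV subunit that binds ATP, was the steadiest of the 5 highest members, at 289.6, 346 and 359.6 FPKM.

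At the other end stood isoforms known from heart, muscle and testis. Cox6a2, the heart and muscle form of subunit VIa, had a lowest, median and highest value of 0, 0.085 and 6.64 FPKM, against 175, 284 and 346 FPKM for the general form Cox6a1. Cox6b2, the testis form of subunit VIb, gave 0.23, 1.06 and 3.55 FPKM. Cox7a1, the heart and muscle form of subunit VIIa, gave 0.58, 1.88 and 6.96 FPKM, against 75.4, 105 and 187 FPKM for the general form Cox7a2. The general form was the higher one in every library. Atp5s, a coupling-factor homologue, gave 0.53, 0.90 and 2.02 FPKM. Ndufs5 was lowest of all and is a matter of assignment: it was listed under 2 FPKM in the 12 libraries and at 28.4 and 29.8 FPKM in the other two, while BC002163, which occupies the same locus, was listed at 22.04 to 33.2 FPKM in the 12 and near 0 in the other two. The sum of both entries ran from 22.04 to 33.2 FPKM over all 14 libraries, so no direction is read from Ndufs5. It remains in the counts of members by direction below, including those over the STAT6 KO and the GATA3 vector pairs.

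By role, the members comprised 7 core and 29 accessory subunits of complex I, 4 of its assembly factors, 4 subunits of complex II, 8 of complex III, 11 of complex IV with 4 further isoforms or paralogues, and 15 of ATP synthase. A further 3 entries matched by prefix only: Atp5s, Atp5sl and Cox4nb, a neighbour of Cox4i1 that is named for its position. Most members varied together, as the heat map of 12 libraries shows. The correlation of a member with the mean of the others had a median of 0.70 over the 12 libraries, which share culture and scaling, and 44 members exceeded 0.7. Atp5k followed the others most closely, with r of 0.98. Against the rest ran 14 members, with r below 0, and Atp5d, the delta subunit of the F1 stalk, was lowest at -0.55. Outside the members, the genes most like their mean were Ost4, Psmb3, Vps29, Gtf2h5 and Tceb2, with Pearson r between 0.96 and 0.97 over the same 12 libraries.

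**Figure D1:**
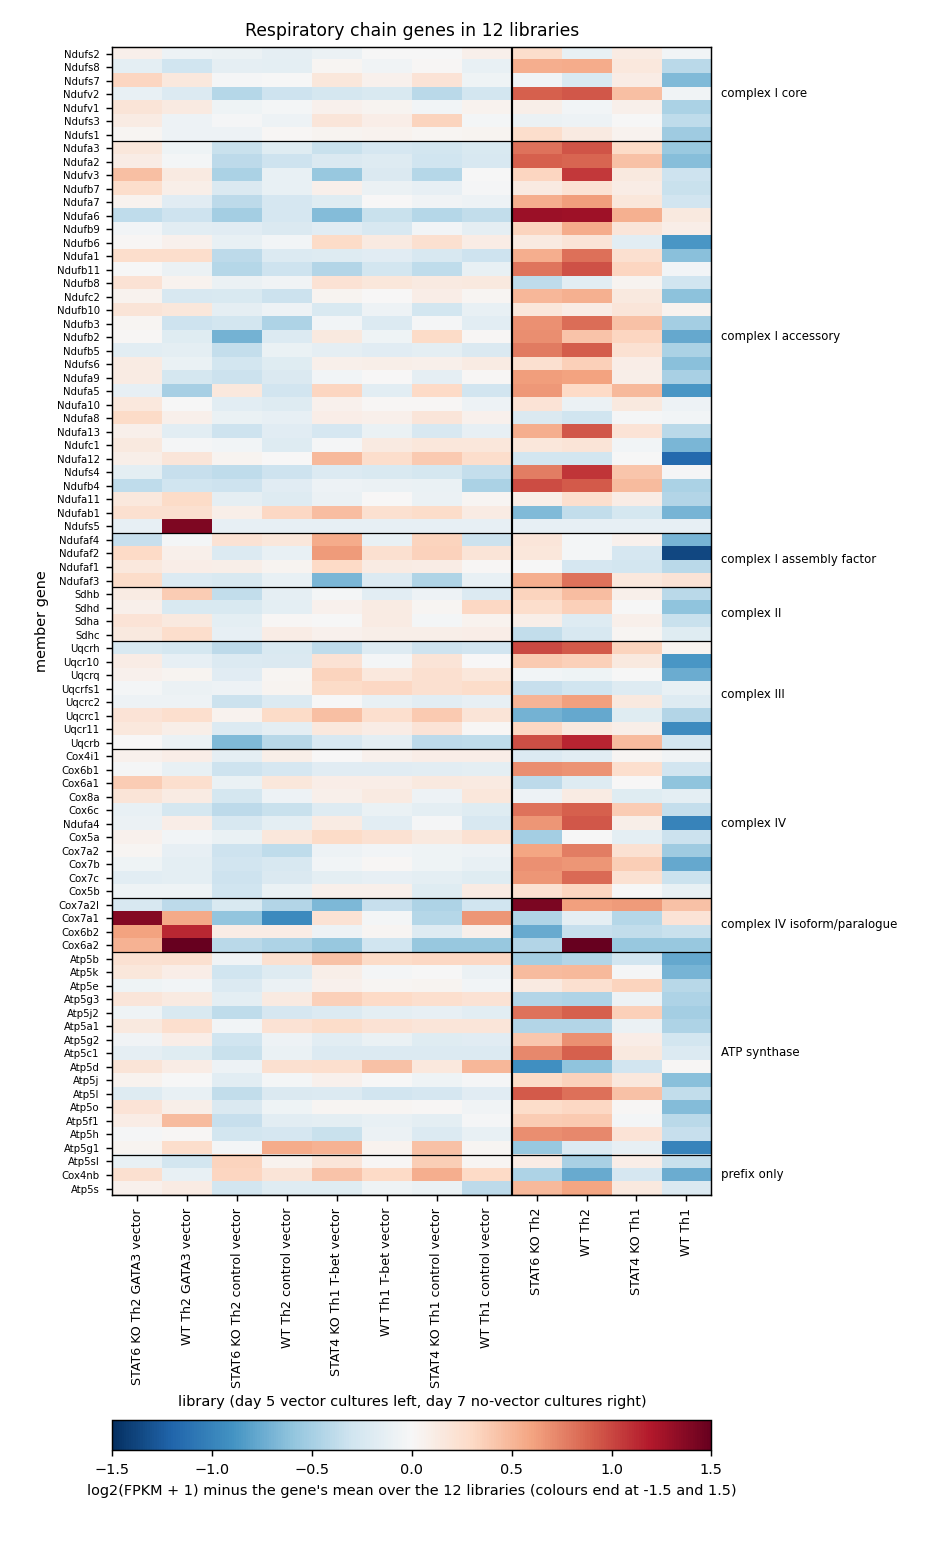
Heat map of the 85 members (rows, grouped by role and ordered by mean level) in 12 libraries (columns, day 5 vector cultures left of day 7 no-vector cultures). Colour gives log2(FPKM + 1) minus the gene's mean over the 12 libraries. Most rows are red in the WT Th2 and STAT6 KO Th2 columns without vector and blue in the WT Th1 column. Atp5d, Uqcrc1 and Atp5g1 are instead below their mean in both of those Th2 columns.

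Ndufaf4 and Atp5g1 are the members called in the comparisons of STAT loss below, and their promoters are shown for that reason, with those of the other c subunit genes beside Atp5g1. Atp5g1, Atp5g2 and Atp5g3 encode precursors with different import signals that give the same mature c subunit. Each line is the 250 bases before the RefSeq start of the gene in GRCm38.p6, 5′ to 3′ on the gene's strand. Capitals mark GCGCATGC, the core letters of the NRF1 site, and CCAAT, the letters of the NF-Y site, each on either strand and with overlaps kept.
Atp5g1, chr11:96075632-96075881, minus strand: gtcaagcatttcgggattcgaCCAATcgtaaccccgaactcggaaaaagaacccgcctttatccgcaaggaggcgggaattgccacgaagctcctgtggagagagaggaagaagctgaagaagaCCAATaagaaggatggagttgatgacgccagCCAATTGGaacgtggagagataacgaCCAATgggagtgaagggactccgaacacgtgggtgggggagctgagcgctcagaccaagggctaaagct
Atp5g2, chr15:102671048-102671297, minus strand: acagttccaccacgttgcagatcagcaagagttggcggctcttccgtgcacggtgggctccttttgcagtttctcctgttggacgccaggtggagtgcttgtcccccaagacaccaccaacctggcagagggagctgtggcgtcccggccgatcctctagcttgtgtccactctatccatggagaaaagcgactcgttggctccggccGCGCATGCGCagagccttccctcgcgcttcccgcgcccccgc
Atp5g3, chr2:73911327-73911576, minus strand: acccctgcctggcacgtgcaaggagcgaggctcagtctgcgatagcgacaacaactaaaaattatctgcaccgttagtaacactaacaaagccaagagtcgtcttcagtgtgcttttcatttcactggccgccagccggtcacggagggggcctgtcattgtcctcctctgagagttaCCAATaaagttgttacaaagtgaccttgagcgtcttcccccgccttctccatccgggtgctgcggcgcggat
Ndufaf4, chr4:24897833-24898082, plus strand: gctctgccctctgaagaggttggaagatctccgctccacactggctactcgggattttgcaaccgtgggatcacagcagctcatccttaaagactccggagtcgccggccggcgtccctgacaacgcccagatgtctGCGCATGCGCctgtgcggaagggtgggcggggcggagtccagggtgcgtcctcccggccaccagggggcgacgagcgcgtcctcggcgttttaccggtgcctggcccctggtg

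The 4 stretches differ in these letters. Atp5g1 holds 5 matches to CCAAT, 2 of which overlap on opposite strands; 37.5% of 27025 RefSeq genes hold at least 1 match in this window and 0.248% hold at least 5, a bound chosen after its promoter was read. Atp5g3 holds 1 match to CCAAT and none to GCGCATGC. Atp5g2 and Ndufaf4 hold no CCAAT, and each holds the palindrome-like run in which GCGCATGC matches both strands with overlap. In the mm9 build of the expression files, Atp5g1 lies on chromosome 11 from 95934107 to 95937008, Atp5g2 on chromosome 15 from 102493299 to 102501478, Atp5g3 on chromosome 2 from 73746507 to 73749351 and Ndufaf4 on chromosome 4 from 24825230 to 24832148, and the values cover the exons of each.

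Over the window of 250 bases before to 50 after the start, 72 of the 85 members were found in the RefSeq promoter table. GCGCATGC was present in 11 of them (15.3%), against 6.42% of the tested genes found there and 3.05% of all RefSeq genes. AAGATGGC, the core letters of the YY1 site, was present in 11 (15.3%), against 5.62% and 3.19%. CCGGAAG, the core letters of sites for ETS factors such as GABPA, was present in 17 (23.6%), against 21.7% and 9.93%. Each motif was searched on both strands and independently of the others, so overlapping matches count for each. A match describes the sequence and is not evidence of binding.

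Fits below give log2 changes on the log2(FPKM + 1) scale, which understates changes of low genes. They come from limma over 12 libraries with additive terms, and calls were made where p, adjusted by Benjamini-Hochberg over all 11121 tested genes, was under 0.05. With 1 library a group, the error comes from departures from additivity, on 5 residual degrees of freedom, and the p-values measure only that spread. Beside each fit stand the matched pairs, 1 library against 1, which have no test. In these mixed RNA samples, fewer cells expressing a gene and less RNA per cell cannot be told apart. Several members have processed pseudogenes or near-identical copies elsewhere in the genome, and the notes used here do not say how the counting split such reads.

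Th2 cells were set against Th1 cells to ask how the lineages differ, and without vector the respiratory chain was higher in Th2. The median member was higher by 0.88 on the log2 scale in WT Th2 than in WT Th1, against 0.01 for all tested genes. 72 of 85 members were higher, where 50.5% of all tested genes were. 30 (35.3%) were at least 2-fold higher, where 8.0% of all tested genes were, and none was 2-fold lower, where 6.47% were. With control vector, the same lineages showed nothing of this size: the median member differed by -0.06, against -0.07 for all genes, and 27 of 85 were higher, where 39.3% of all genes were. In that pair no member was 2-fold higher, where 1.74% of all genes were, and 1, Cox7a1, was 2-fold lower, where 4.72% were.

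The no-vector difference was spread over the complexes but not evenly. Complex I accessory subunits, which surround the catalytic core, had a median of 1.07, and 15 of 29 were 2-fold higher in WT Th2. The complex I core subunits, which carry the flavin and iron-sulphur clusters, had a median of 0.44, and 0 of 7 were. Medians were 0.50 for complex II, 0.84 for complex III, 0.97 for complex IV and 0.96 for ATP synthase. Ndufa4, a small subunit now placed in complex IV, read 370.2 FPKM in WT Th2 and 96.0 FPKM in WT Th1. Ndufa3 and Ndufa1, small membrane subunits of complex I, read 379 and 136.6 FPKM in WT Th2, against 133 and 49.2 FPKM in WT Th1. A few members ran the other way: Atp5d read 86.1 FPKM in WT Th2 and 133 FPKM in WT Th1, and Uqcrc1, a core subunit of complex III, read 39.9 and 50.1 FPKM.

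Other gene groups moved with the members in this pair. The median of 94 cytosolic ribosomal protein genes was 0.90, with 35 at least 2-fold higher. It was 0.49 for 76 mitochondrial ribosomal protein genes, 0.51 for 38 proteasome subunit genes and 0.36 for 17 enzymes of the tricarboxylic acid cycle. Transcript length moved with it as well. Members under 800 nt had a median of 1.07, those of 800 to 1500 nt 0.93 and those over 1500 nt 0.55, while 367 other tested genes under 800 nt had a median of 0.54 and 4960 tested genes over 3000 nt had -0.09. Member transcripts are short, with a median of 955 nt against 2884 nt for tested genes. The part of length, or of the ribosomal protein genes' shift, in the result was not tested.

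**Figure D2:**
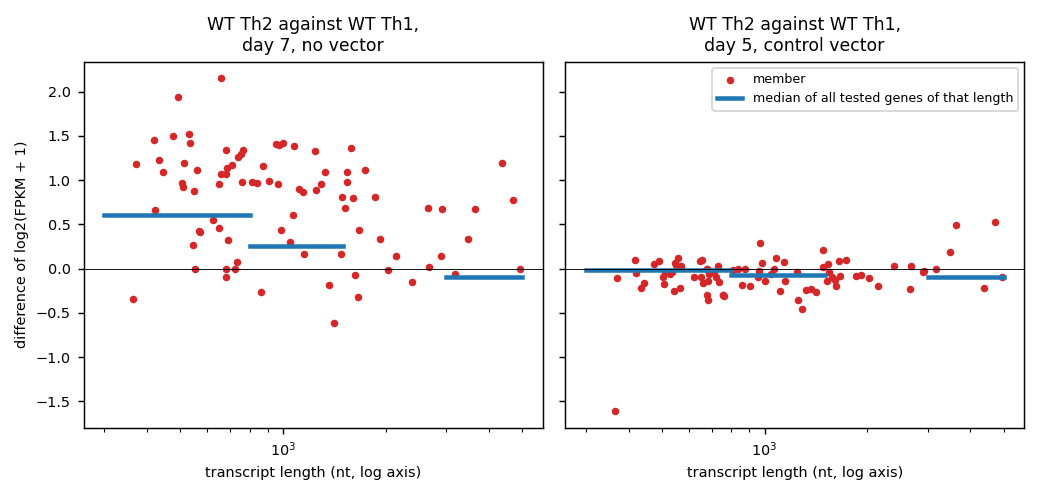
Difference of log2(FPKM + 1) between WT Th2 and WT Th1 against transcript length in nt (log axis), day 7 without vector on the left and day 5 with control vector on the right. Points are the 85 members and blue bars the median of all tested genes of that length; without vector most members lie above 0 and above the bars, and with control vector both lie near 0.

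The fit over both cultures called 2 members higher in Th2, 2.35% of the 85, where 1.64% of all tested genes were called higher, and none lower, where 5.17% were. Ndufaf4, an assembly factor of complex I, was higher by 0.64 ± 0.13 (SE; adjusted p = 0.0414), and Atp5g1 by 0.58 ± 0.13 (adjusted p = 0.0474). Ndufaf4 read 10.7 FPKM in WT Th2 and 6.34 FPKM in WT Th1 without vector, and 12.4 and 8.56 FPKM with control vector. Atp5g1 read 39.7 FPKM in WT Th2 and 22.8 FPKM in WT Th1 without vector, and 68.4 and 47.0 FPKM with control vector, so both genes were higher in Th2 in both cultures. The median fitted change over all members was 0.31, and 1 library carried it: without the WT Th1 no-vector library the median was -0.04, and neither gene was called (0 members). Without any 1 of the 12 libraries, Ndufaf4 was called in 1 fit and Atp5g1 in none, with estimates of 0.57 to 0.72 and 0.43 to 0.69. With a lineage by culture term, 4 members were called higher, where 2.55% of all tested genes were: Ndufaf4, Ndufa4, Atp5c1 and Sdhb.

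The second wild-type Th1 library, left out of the fits, is the only repeat of a group. Its overall profile differs from that of the 12 fitted libraries. Spread within the group and whatever sets this library apart thus cannot be told apart, and this holds for each comparison made against it. The second library exceeded the first by a member median of 0.21, against 0.00 for all tested genes. 16 members were at least 2-fold higher, where 13.7% of all tested genes were, and 7 at least 2-fold lower, where 11.9% were. Against this second library the WT Th2 library was higher by a member median of 0.46, against 0.00 for all tested genes, with 57 of 85 members higher, where 50.0% were. In that pair 27 of 85 members were at least 2-fold higher, where 2238 of 11121 tested genes were. At least 2-fold lower were 5 members, where 20.7% of all tested genes were. The T-bet KO library, which stood apart together with it, differed from it by a member median of -0.04, with 37 of 85 members higher, where 46.6% of tested genes were.

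**Figure D3:**
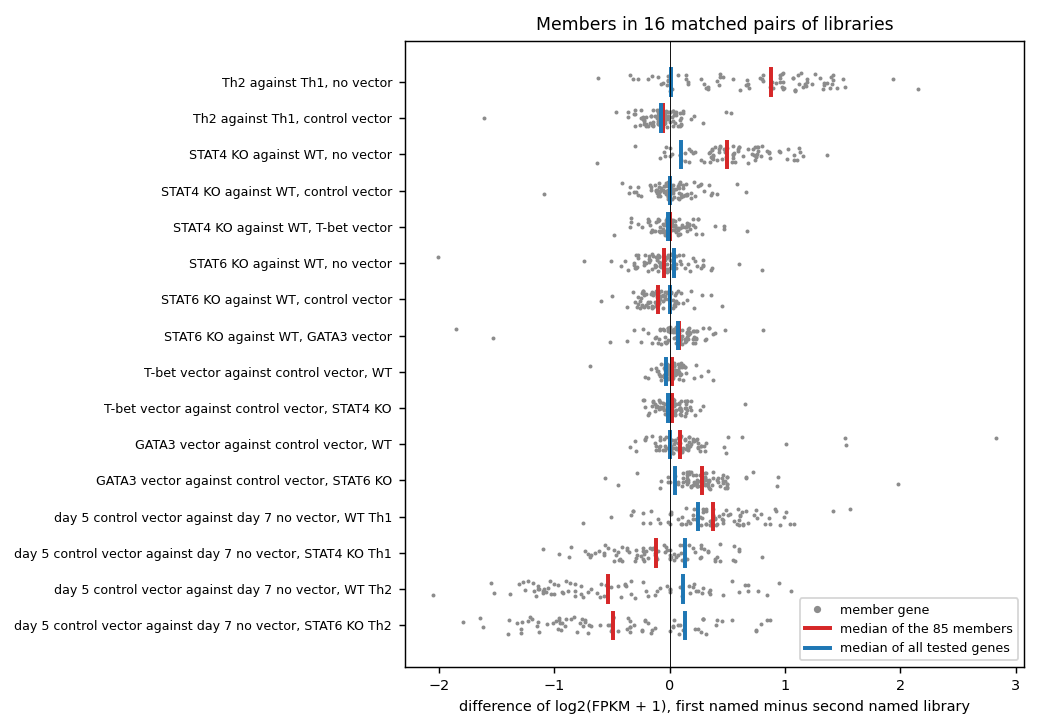
Differences of log2(FPKM + 1) in 16 matched pairs of libraries. Grey points are the 85 members, red bars their median and blue bars the median of 11121 tested genes. The members shift furthest from all genes in the no-vector Th2 against Th1 pair (0.88 against 0.01), the no-vector STAT4 KO pair (0.50 against 0.10) and the 2 Th2 culture pairs.

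STAT4, activated by IL-12, was removed to ask what it contributes to Th1 cells, and the respiratory chain was higher in STAT4 KO Th1 in the no-vector pair. The median member was higher by 0.50, against 0.10 for all genes, and 78 of 85 were higher, where 59.2% of all genes were. Of these, 9 were at least 2-fold higher, where 3.63% of all genes were. Against the second WT Th1 library, which stands apart from the 12 fitted libraries, the same STAT4 KO library had a member median of 0.30, against 0.10 for all genes. In that pair 53 of 85 members were higher, where 53.6% of all genes were. At least 2-fold higher were 17 of 85 members, where 2052 of 11121 genes were, and 5 were at least 2-fold lower, where 17.0% were. Other groups moved in the no-vector pair too: the median was 0.40 for mitochondrial ribosomal protein genes, 0.39 for proteasome genes, 0.30 for cytosolic ribosomal protein genes and 0.32 for other tested genes under 800 nt, and their part in the result was not tested. With control vector and with T-bet vector the member median was 0.00, against 0.00 and -0.01 for all genes. 32 members (37.6%) were higher in all 3 pairs, where 28.8% of all genes were, and 5 were lower in all 3, where 22.6% were: Atp5d, Cox6b2, Cox8a, Ndufaf3 and Uqcrfs1. This comparison and the lineage comparison share the WT Th1 libraries, and without the no-vector one the fitted member median was -0.05 in place of 0.19.

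Ndufaf4 was the 1 member called, higher in STAT4 KO by 0.70 ± 0.12 (SE; adjusted p = 0.0394), where 1.17% of all tested genes were called higher, and none was called lower, where 1.94% were. It read 11.52, 14.1 and 16.6 FPKM in STAT4 KO Th1 without vector, with control vector and with T-bet vector, against 6.34, 8.56 and 10.0 FPKM in the matched WT Th1. The KO library was higher in every pair, and the ranges of the 2 genotypes did not overlap. The call was lost in 8 of 12 fits without 1 library, where the estimate stayed between 0.64 and 0.75. Atp5g1 read 42.4, 62.8 and 66.5 FPKM in STAT4 KO Th1, against 22.8, 47.0 and 47.7 FPKM in WT Th1, and missed the threshold at 0.58 ± 0.11 (adjusted p = 0.0502). Ndufa5, an accessory subunit of the complex I arm in the matrix, read 72.7, 63.7 and 64.5 FPKM in STAT4 KO Th1 and 27.8, 42.2 and 46.1 FPKM in WT Th1, without a call.

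Among respiratory genes outside the members, 2 of 24 assembly and expression factors were called higher and none lower in STAT4 KO, where 1.17% and 1.94% of all tested genes were. With the lineage by culture term, 1 of the 24 was called higher, where 185 of 11121 tested genes were. Lrpprc, which stabilizes mitochondrial mRNAs, was higher by 0.76 ± 0.09 (adjusted p = 0.0186), with 17.6, 39.4 and 41.5 FPKM in STAT4 KO Th1 and 8.51, 24.3 and 26.1 FPKM in WT Th1. Sco2, which delivers copper to complex IV, was higher by 0.70 ± 0.13 (adjusted p = 0.0491), with 7.70, 14.9 and 20.6 FPKM in STAT4 KO Th1 and 4.55, 8.80 and 11.9 FPKM in WT Th1; its locus overlaps Tymp and Ncaph2, so its reads are less certain. Mrpl3 and Mrpl37 were the 2 of 76 mitochondrial ribosomal protein genes called, both higher, where 1.17% of all tested genes were. With the lineage by culture term, 4 of the 76 were called higher.

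STAT6, activated by IL-4, was removed to ask what it contributes to Th2 cells, and no member was called in either direction, where 2.78% of all tested genes were. An unadjusted p under 0.05 was found for 4 members (4.71%), where 20.5% of all tested genes had one. Member medians were -0.05, -0.10 and 0.08 in STAT6 KO without vector, with control vector and with GATA3 vector, against 0.04, 0.00 and 0.07 for all genes. 18 members were lower in all 3 pairs (21.2%, where 17.4% of all genes were) and 9 were higher in all 3, where 28.8% were. The 15 ATP synthase genes all had negative estimates, with a median of -0.08, where 42.7% of all tested genes were negative. Other groups leaned the same way. The median was -0.20 for cytosolic ribosomal protein genes, with 86 of 94 negative. It was -0.10 for other tested genes averaging at least 100 FPKM, with 348 of 533 negative. The pairs of the ATP synthase genes were less uniform: 2 were higher in STAT6 KO without vector, 0 with control vector and 7 with GATA3 vector, where their median was -0.01. Cox6a2 had the lowest estimate, -1.27 ± 0.43 (adjusted p = 0.169): it read 0.097, 0.12 and 1.13 FPKM in cells labelled STAT6 KO, against 3.43, 0.073 and 6.64 FPKM in WT Th2. Its locus overlaps Itgad, which was near 0 in all libraries. Cox7a2l, a paralogue that helps to join complexes III and IV, read 371.5, 118 and 117 FPKM in cells labelled STAT6 KO and 213, 102 and 105.8 FPKM in WT Th2 (0.38 ± 0.18, adjusted p = 0.293).

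The effects of STAT6 loss and STAT4 loss were compared directly in the same fit, and Atp5g1 was the 1 member called. Most members leaned the same way. The member median was -0.23, with 74 of 85 estimates negative, against 0.00 and 5444 of 11121 for all tested genes. Medians were -0.29 for ATP synthase genes and -0.27 for cytosolic ribosomal protein genes. For Atp5g1 the STAT6 effect minus the STAT4 effect was -0.98 ± 0.16 (SE; adjusted p = 0.0382), where 0.737% of all tested genes were called lower. No member was called higher, where 1.74% of all tested genes were. It read 30.7, 45.1 and 47.4 FPKM in cells labelled STAT6 KO without vector, with control vector and with GATA3 vector, against 39.7, 68.4 and 55.7 FPKM in WT Th2. The gene was thus lower in every STAT6 pair and higher in every STAT4 pair, a pattern shared by 6 members (Atp5e, Atp5g1, Ndufa4, Ndufb5, Ndufb6 and Sdhb; 7.06%) where 4.48% of all tested genes had it. The call held in 1 of 12 fits without 1 library, with estimates of -1.06 to -0.85. Lrpprc (-0.79 ± 0.12, adjusted p = 0.0325) and Sco2 (-1.21 ± 0.19, adjusted p = 0.0343) were called in the same direction. Sco2 read 5.49, 11.8 and 9.65 FPKM in cells labelled STAT6 KO and 6.98, 15.0 and 19.0 FPKM in WT Th2. Lrpprc read 13.5, 31.6 and 22.8 FPKM in cells labelled STAT6 KO and 12.8, 32.4 and 24.6 FPKM in WT Th2, close in every pair.

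STAT6 KO Th2 and STAT4 KO Th1 cells, each without its lineage STAT, can be set side by side in 2 cultures. The median member was higher in the library labelled STAT6 KO Th2 by 0.24 without vector, with 60 of 85 members higher, where 42.6% of tested genes were, and its difference was -0.19 with control vector, with 80 of 85 members lower, where 57.5% of tested genes were.

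The other genes of the c subunit were not called for STAT4 or STAT6 loss, and their difference from Atp5g1 was not tested. Atp5g2 read 156, 128 and 130.6 FPKM in STAT4 KO Th1 and 119.8, 129.5 and 136 FPKM in WT Th1, and Atp5g3 read 289, 364 and 391 FPKM in STAT4 KO Th1 and 221, 355 and 376 FPKM in WT Th1. Atp5g1 was the least of the 3 in every library and supplied 6.27 to 12.7% of their summed FPKM, with the lowest share in WT Th1 without vector and the highest in WT Th2 with control vector.

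**Figure D4:**
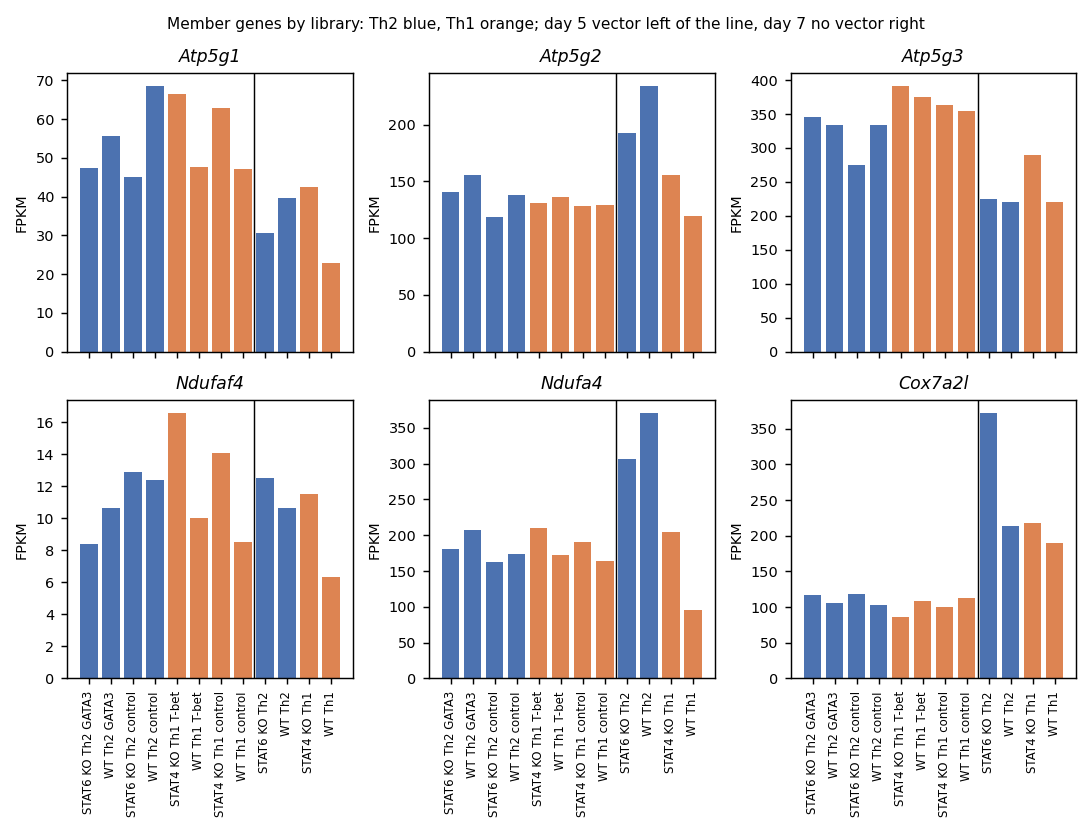
FPKM of 6 members in the 12 libraries, Th2 blue and Th1 orange, with day 5 vector cultures left of the line and day 7 no-vector cultures right of it; each bar is 1 library. Atp5g1 and Ndufaf4 are higher in each STAT4 KO Th1 library than in the WT Th1 library beside it, Ndufa4 peaks at 370.2 FPKM in WT Th2 without vector, and Cox7a2l is below 119 FPKM in all 8 vector libraries.

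With added T-bet no member was called, where 0.018% of all tested genes were, and none had an unadjusted p under 0.05. Member medians were 0.02 in wild-type and 0.02 in STAT4 KO Th1 cells, against -0.03 and -0.01 for all genes. The additive fit gave a median of 0.19, and 0.04 once the culture term could differ between lineages. The members with the largest and the lowest estimates were Ndufaf2 (0.49 ± 0.39), Uqcrb (0.47 ± 0.34), Atp5sl (-0.11 ± 0.13) and Atp5d (-0.08 ± 0.15), with adjusted p of 0.956 to 0.969. Atp5d turned to 0.02 under the lineage by culture term.

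With added GATA3 many members were slightly higher in the matched pairs, while the median of the additive fit was near 0. 62 of 85 members (72.9%) were higher with GATA3 vector than with control vector in both wild-type and STAT6 KO Th2 cells, where 37.4% of all genes were, and 6 were lower in both, where 32.2% were. The member median was 0.09 in wild-type and 0.28 in STAT6 KO cells, against 0.00 and 0.05 for all genes. The additive fit gave a median of 0.02, with 50 of 85 estimates positive (58.8%, where 49.9% of all tested genes were), and -0.14 to 0.12 without any 1 library. Once the culture term could differ between lineages, the member median was 0.20, against 0.02 for all tested genes. Positive estimates were then found for 76 of 85 members and 5911 of 11121 tested genes. In all, 4 members were at least 2-fold higher in wild-type cells, where 3.52% of all genes were: Cox6a2, Cox7a1, Cox6b2 and Ndufs5, whose assignment is in doubt. The first 3 are the tissue isoforms of complex IV. Cox6a2 reached 1 FPKM only in WT Th2 without vector (3.43 FPKM) and with GATA3 vector in wild-type (6.64 FPKM) and STAT6 KO cells (1.13 FPKM). It thus passed the level rule only with the help of a GATA3 library, and its place in this count is no support for a rise of members. Among the 12 libraries, Ndufs5 reached 1 FPKM only in WT Th2 with GATA3 vector, at 1.885 FPKM.

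Cox6b2 was the 1 member called, higher by 0.85 ± 0.15 (SE; adjusted p = 0.0392), where 2.63% of all tested genes were called higher, and none was called lower, where 0.216% were. It read 2.17 and 3.55 FPKM with GATA3 vector in STAT6 KO and wild-type cells, against 1.25 and 1.26 FPKM with control vector. No other library of the 12 reached the lower GATA3 value, but WT Th1 replicate 2, without vector and outside the fits, read 5.08 FPKM. The call was kept in 1 of 12 fits without 1 library, with limma estimates of 0.69 to 1.05 and adjusted p of 0.0174 to 0.195. It was also lost with pseudocount 0.1 (adjusted p = 0.117), no filter (0.0615), median centring (0.0592), quantile normalization (0.0942), all 14 libraries (0.732) and the lineage by culture term (0.0699). Cox7a1 read 6.96 and 3.53 FPKM with GATA3 vector and 1.02 and 0.58 FPKM with control vector (1.57 ± 0.37, adjusted p = 0.0920), but 3.82 FPKM in WT Th1 with control vector. Cox6a2 read 1.13 and 6.64 FPKM with GATA3 vector and 0.12 and 0.073 FPKM with control vector (1.63 ± 0.50, adjusted p = 0.160). For Cox7a1 and Cox6a2, WT Th1 replicate 2 read 6.61 and 0.097 FPKM. Sdhb, the complex II subunit that carries its iron-sulphur clusters, read 94.2 and 112 FPKM with GATA3 vector and 66.4 and 78.4 FPKM with control vector, without a call.

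Day 5 vector against day 7 no-vector cultures gave the most calls of the comparisons fitted. 16 members were called higher in the vector cultures (18.8%), where 35.8% of all tested genes were, and 15 were called lower (17.6%), where 15.2% were. Uqcrc1 was higher by 0.75 ± 0.09 (SE; adjusted p = 0.000738), Atp5g1 by 0.72 ± 0.10 (adjusted p = 0.00150), Atp5b by 0.70 ± 0.12 (adjusted p = 0.00397) and Atp5d by 0.65 ± 0.11 (adjusted p = 0.00356). Ndufab1, the mitochondrial acyl carrier protein that is also a complex I subunit, was higher by 0.70 ± 0.08, and the prefix match Cox4nb by 0.89 ± 0.09. 5 of 15 ATP synthase genes were called higher, a share near the 35.8% of all tested genes. Among them were both large F1 subunits, Atp5a1 and Atp5b. Atp5b read 426.9 to 604 FPKM in the 8 vector libraries and 259.9 to 363 FPKM in the 4 no-vector libraries, which do not overlap.

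Complex I accessory and complex III subunits held 9 of the 15 falls. Ndufa6, a complex I subunit of the LYR family, was lower in vector cultures, with a change of -1.19 ± 0.21 (adjusted p = 0.00402), with 53.5 to 71.3 FPKM in the 8 vector libraries and 94.1 to 208 FPKM in the 4 no-vector libraries. Cox7a2l was lower as well, with a change of -1.13 ± 0.16 (adjusted p = 0.00153), with 86.7 to 118 FPKM in vector and 190.0 to 371.5 FPKM in no-vector libraries. Neither gene's ranges overlap between the cultures. Uqcrb and Uqcrh, small subunits of complex III, changed by -1.04 ± 0.26 and -0.87 ± 0.18, and Ndufv2 and Ndufs4, of the complex I matrix arm, by -0.91 ± 0.18 and -0.89 ± 0.18, with adjusted p of 0.00622 to 0.0153. 6 of 29 accessory complex I subunits were called lower and 2 higher, where 15.2% and 35.8% of all tested genes were. 3 of 8 complex III subunits were called lower (Uqcrb, Uqcrh, Uqcrc2) and 2 higher (Uqcrc1, Uqcrfs1), so subunits of 1 complex moved in both directions.

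The balance of these calls depends on scaling. The median over all tested genes was higher in the vector cultures by 0.15 in the fit, and when each library was centred on its median, 46 members were called, 6 higher and 40 lower (7.06% and 47.1%), where 22.9% and 29.5% of all tested genes were. With quantile normalization 13 were called higher and 20 lower (15.3% and 23.5%), where 26.3% and 22.2% were. The 12 members named here kept their direction and their call under both scalings. Without the WT Th1 no-vector library 56 members were called, 13 higher and 43 lower, where 35.1% and 17.6% of all tested genes were. Without the WT Th2 control-vector library 19 were called, 10 higher and 9 lower, where 30.9% and 11.4% were.

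Genes around the chain were read against the same background, 35.8% of all tested genes called higher in vector cultures and 15.2% lower. Cyc1, the cytochrome c1 subunit of complex III, was higher by 0.80 ± 0.07 (adjusted p = 0.000364). 7 of 12 regulators of mitochondrial biogenesis were called higher and none lower, among them Polrmt, the mitochondrial RNA polymerase (1.41 ± 0.15), the nuclear receptor Esrra (1.34 ± 0.11) and the coactivator Ppargc1b (1.09 ± 0.12). Esrra read 7.90 to 13.8 FPKM in the 8 vector libraries and 2.71 to 3.47 FPKM in the 4 no-vector libraries. Among 24 assembly factors 12 were called higher and 4 lower, led by Lrpprc at 1.24 ± 0.07 (adjusted p = 0.000155). 7 of 17 tricarboxylic acid cycle enzymes were called higher and 3 lower, shares near that background, with Dlat (1.04 ± 0.10) and Ogdh (1.0 ± 0.10), parts of the pyruvate and oxoglutarate dehydrogenases, at the top and Suclg2 (-0.56 ± 0.18) at the bottom. 35 of 76 mitochondrial ribosomal protein genes were called higher and 3 lower, whereas 11 of 94 cytosolic ones were called higher and 48 lower.

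In the matched culture pairs the members shifted in opposite directions in WT Th1 and in Th2. In WT Th1 the median member was higher with vector by 0.38, against 0.25 for all genes, and 72 of 85 were higher, where 65.1% of all genes were. In STAT4 KO Th1 it was -0.12, against 0.13 for all genes. In WT Th2 and STAT6 KO Th2 it was -0.53 and -0.49, against 0.12 and 0.13 for all genes, and 23 and 17 members were at least 2-fold lower, where 7.72% and 5.22% of all genes were. 9 members were higher in both Th1 pairs and lower in both Th2 pairs (10.6%, where 4.5% of all genes were): Atp5k, Atp5o, Cox8a, Ndufaf2, Ndufb6, Ndufc1, Sdhd, Uqcr10 and Uqcr11. 22 were higher in all 4 pairs (25.9%, where 40.1% of all genes were) and 12 were lower in all 4 (14.1%, where 18.6% were).

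A test of whether the culture effect differed between Th2 and Th1 called no member and no gene at all. In this test 45 of 85 members and 1814 of 11121 genes had an unadjusted p under 0.05. Its member median, the culture effect in Th2 minus that in Th1, was -0.71, against -0.04 for all genes. The median was -0.86 for complex I accessory subunits, -0.84 for complex IV and -0.31 for the complex I core. Ndufa4 (-1.32 ± 0.31, adjusted p = 0.220) and Ndufb2, an accessory subunit (-1.39 ± 0.40, adjusted p = 0.232), had the lowest estimates. Ndufa4 read 163 to 207 FPKM in Th2 vector libraries and 307 and 370.2 FPKM in Th2 no-vector libraries, against 163 to 209.7 FPKM in Th1 vector and 96.0 and 205 FPKM in Th1 no-vector libraries. Without the STAT4 KO Th1 no-vector library, 36 members (42.4%) were called lower in this test, where 2.78% of all tested genes were, and 0 higher, where 0.755% were. That fit kept WT Th1 as the only Th1 library without vector. The cytosolic ribosomal protein genes again moved with the members: their medians were -0.01 and -0.37 in the WT and STAT4 KO Th1 pairs and -0.77 and -1.04 in the WT and STAT6 KO Th2 pairs, and their part in the result was not tested.

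**Figure D5:**
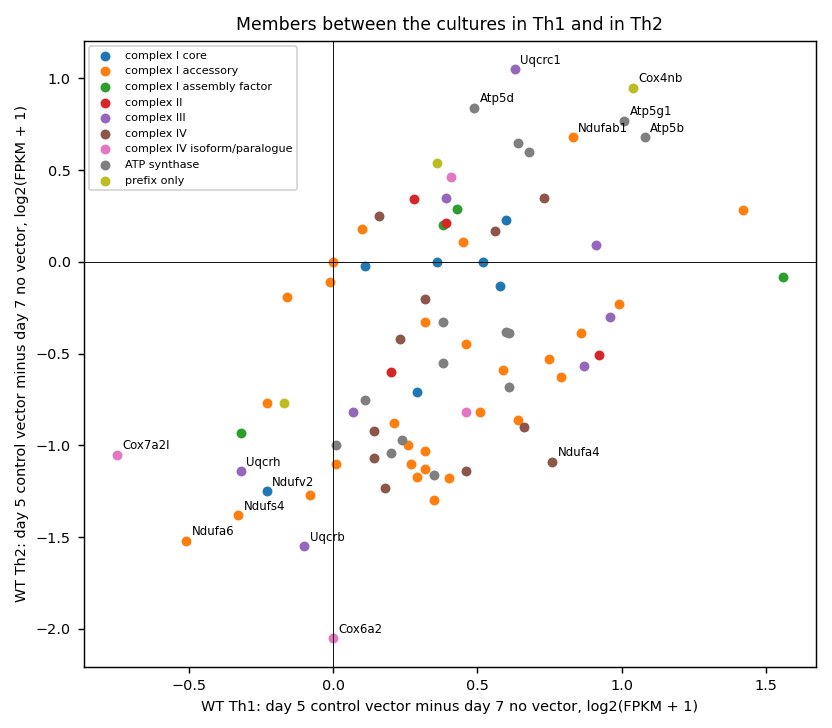
Difference of log2(FPKM + 1) between day 5 control-vector and day 7 no-vector cultures in wild-type Th1 (horizontal axis) and wild-type Th2 (vertical axis), 1 point a member, coloured by role. Most points lie right of 0 and below 0, with medians of 0.38 in Th1 and -0.53 in Th2, while Uqcrc1, Cox4nb, Atp5g1 and Atp5b are above 0 on both axes and Ndufa6 and Cox7a2l below 0 on both.

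Complex II is wholly nuclear-encoded, and each of its 4 genes stayed within a 2-fold range over the 12 libraries. Sdhb read 64.9 to 119 FPKM. Sdha, the flavoprotein that oxidizes succinate, read 35.2 to 51.6 FPKM over the 12 libraries, and Sdhc and Sdhd, the membrane anchors, read 30.2 to 47.3 and 39.2 to 77.2 FPKM. Sdhc was called higher in vector cultures, by 0.23 ± 0.06 (adjusted p = 0.0212), the smallest change among the called members. Some catalytic or core subunits elsewhere in the chain also stayed within a 2-fold range, whereas the catalytic Atp5b and the core subunit Uqcrc1 did not. For Atp5b and Uqcrc1 the highest library exceeded the lowest by ratios of 2.33 and 2.36. Ndufs1 and Ndufv1, which carry iron-sulphur clusters and the flavin of complex I, read 15.3 to 27.4 and 20.8 to 33.4 FPKM, and Uqcrfs1, the Rieske protein of complex III, read 63.0 to 100.5 FPKM. For Ndufs1 and Ndufv1 the lowest value was that of WT Th1 without vector.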

How the data were processed

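RNA-seq was made from total RNA with single reads, per the labels' protocols, and the submitters' processing notes name TopHat, Cufflinks and the mm9 build, without versions. The values used are FPKM per gene as the authors deposited them, with their 95% interval bounds, also in FPKM. They carry no read counts, so the depth per library is unknown and a count test was not possible; dividing by transcript length and library size ties all genes of a library to its most abundant transcripts. The ChIP-seq files were not used here.

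A gene was tested if 2 or more of the 14 RNA libraries reached 1 FPKM and Cufflinks marked none of its estimates as failed (11121, with 118 left out as failed). The WT Th1 replicate 2 and T-bet KO libraries take no part in the fits, which cover 12 libraries. log2(FPKM + 1) was fitted with limma 3.58.1 in R 4.3.3 (lmFit, eBayes with trend), with terms for lineage, culture, STAT4 KO, STAT6 KO, T-bet vector and GATA3 vector, each two-sided and adjusted by Benjamini-Hochberg over all tested genes. A model with a lineage by culture term tested whether the culture effect differed between lineages. The scripts were tested on simulated data. Levels, pairs and figures were computed in Python 3.11.15 with pandas 2.3.3 and matplotlib 3.10.9.

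The members, gene lists and tests were chosen with earlier results of these data known. Named members are every called member up to 12 a comparison, otherwise the 6 highest and the 6 lowest called estimates. Where none was called, they are the 2 highest and the 2 lowest estimates. Also named are the 5 highest and the 5 lowest by level, complex II, isoform groups and catalytic or core subunits. From the other lists, called genes up to 8 a comparison are named. Further members were named after their values were seen, as examples: Ndufa1, Ndufa3, Ndufa5, Atp5c1 and the members counted by direction over pairs. Alternatives were another pseudocount, no filter, 2 scalings, all 14 libraries, the lineage by culture term, no trend, each library left out in turn, and, chosen after seeing the data, the filter counted over the 12 fitted libraries. Promoter sequences are those of RefSeq on GRCm38.p6; the expression files' own coordinates are mm9.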

Additional observations from a re-analysis of the deposited data

Results flagged for a closer look

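Atp5g1 responded differently to the loss of STAT6 in Th2 cells and the loss of STAT4 in Th1 cells, in the direction in which most members leaned. The member median of the STAT6 effect minus the STAT4 effect was -0.23, with 74 of 85 estimates negative, against 0.00 for all tested genes. For Atp5g1 this difference was -0.98 ± 0.16 on the log2 scale (SE; limma over 12 libraries, adjusted p = 0.0382). It was lower in the STAT6 KO library in 3 of 3 pairs and higher in the STAT4 KO library in 3 of 3 pairs. Over the fits without 1 library the estimate ran from -1.06 to -0.85 and the adjusted p from 0.0366 to 0.128, and 1 of those 12 fits kept the call. The cause was not tested.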

How the results depend on the processing

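Members called for STAT4 KO numbered 1 in the main analysis, 2 with pseudocount 0.1, with median centring, with quantile normalization and with the filter counted over the 12 fitted libraries, and 0 with no filter or with all 14 libraries. For GATA3 vector the 1 call became 0 with pseudocount 0.1, no filter, either scaling, all 14 libraries or the lineage by culture term. For Th2 against Th1 the 2 calls became 0 with no filter or all 14 libraries and 4 with the lineage by culture term, and for STAT6 KO minus STAT4 KO the 1 call became 0 with no filter or all 14 libraries. For STAT6 KO the 0 calls became 1 with median centring, and the 31 culture calls became 15 with all 14 libraries. The share of all tested genes called also changed with the setting. In the culture comparison 35.8% were called higher in the main analysis and 22.9% with median centring. The member counts alone thus do not show a change particular to the members. Member medians moved to -0.12 for STAT6 KO with median centring, to 0.20 for GATA3 vector with the lineage by culture term, and for T-bet vector to 0.23, 0.12, 0.16 and 0.04 with median centring, quantile normalization, all 14 libraries and the lineage by culture term. Atp5d under T-bet vector turned to 0.02 with that term. The cause was not tested.

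Without each library in turn, calls ranged over 0 to 1 and medians over -0.04 to 0.58 for Th2 against Th1, 0 to 1 and -0.05 to 0.33 for STAT4 KO, 0 to 1 and -0.15 to 0.12 for STAT6 KO, 0 to 0 and 0.04 to 0.39 for T-bet vector, 0 to 1 and -0.14 to 0.12 for GATA3 vector, and 19 to 56 and -0.34 to -0.08 for the cultures. They ranged over 0 to 1 for the difference of STAT effects and 0 to 36 for the difference of culture effects. In the culture comparison, 11 of the 12 named members kept their call in all 12 such fits, and Uqcrb kept it in 10. The filter over the 12 libraries was chosen after seeing the data. The library left alone in a group is assumed to vary like the others.

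No paired analysis was possible because the groups compared share only replicate number 1, so no fit with a replicate block can be made; the matched pairs of the report are matched by culture and genotype, not by replicate number. Depth is unknown, so detection limits were not set; the 5 lowest members, at a mean of 2.38 FPKM or less, are the least certain.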

Other observations

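In the 2 libraries that stand apart, several members had levels outside the range of the other 12. Ndufa4 read 25.6 FPKM in T-bet KO Th1 and 21.9 FPKM in WT Th1 replicate 2, against 96.0 to 370.2 FPKM in the 12, and Cox7a2 read 21.2 and 24.7 FPKM, against 75.4 to 187 FPKM. Cox4i1 read 559 and 558 FPKM, against 289.6 to 359.6 FPKM, and Atp5d read 381 and 452 FPKM, against 69.2 to 186.8 FPKM. What sets these libraries apart was not tested.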
